A study of Homo sapiens with 9 samples.

Results

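The genes described here are 37 human genes of glycolysis and of the cell's response to low oxygen, chosen by name. They are 3 carriers of glucose or lactate, 18 glycolytic enzymes, 2 alpha subunits of the hypoxia-inducible factor (HIF), 13 targets of HIF outside glycolysis, and TXNIP, a glucose-responsive gene that limits glucose uptake. A gene's value was the mean of the probe sets annotated to its symbol alone, and 34 of the 37 genes had a value, from 118 probe sets. The whole table held 18132 such genes and 49293 tested probe sets. The 5 probe sets of the neuronal glucose carrier SLC2A3 were shared with SLC2A14, and SLC2A3, the lactate exporter SLC16A3 and the carbonic anhydrase CA9 were not analysed here.

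RNA came from Y79, a human retinoblastoma line grown in RPMI medium (1 label text spells it Y97), and was read on 9 Affymetrix PrimeView arrays in 3 groups of 3. Control cells were untreated. GNPs cells received bare gold nanoparticles, and GNPs-HDM2 cells received gold nanoparticles conjugated with a peptide of HDM2 (human double minute 2), the name of the protein that restrains p53. The dose, the exposure time and the culture that each array came from are not stated in the labels. The p-values thus cover the spread among these arrays alone, and that spread may be technical.

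Glycolysis splits glucose into pyruvate, and lactate dehydrogenase turns pyruvate into lactate when it is not burned in mitochondria. HIF is a transcription factor whose alpha subunit is marked for destruction by oxygen-dependent prolyl hydroxylases, so that it builds up when oxygen is low and then raises most glycolytic genes together with genes of vessel growth, collagen processing and mitophagy. Retinal photoreceptors and their tumours are known for making lactate even where oxygen is present. TXNIP is switched on by glucose metabolites through the carbohydrate response element of its promoter.

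The deposited values are log2 values counted from a probe set's own baseline, so they give differences between arrays and no level. From the step size of the stored numbers, probe sets were classed by the baseline as dim (2 to 4), middle (4 to 8) or bright (8 to 16). Of the member probe sets 62 were bright, 45 middle, 9 dim and 2 unclassed. Over all 49293 tested probe sets 10757 were bright, 24153 middle, 12913 dim and 1470 unclassed. Of 15 measured photoreceptor markers, 8 had a bright probe set, CRX, OTX2 and RBP3 among them. Of 6 measured markers of Mueller glia, 3 had one, namely GFAP, GLUL and VIM. No measured marker of pigment epithelium, fibroblasts or blood had one. On the GNPs-HDM2 arrays the classes moved apart over the whole table. Against Control, all bright probe sets had a median difference of -1.08, all middle ones 0.24 and all dim ones 0.49. Differences are therefore given as deposited and, for most differences named below, also on a level-centred scale, where the median of each class was set to 0 on each array.

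In cells given the conjugate, 20 of the 34 measured genes fell against Control and none rose, as deposited (limma, adjusted p under 0.05). Over all genes 25.1% were called lower and 33.1% higher. In bulk RNA a change in the make-up of a culture and a change within its cells cannot be told apart. The members' median difference was -0.85, beside 0.25 over all genes. After level centring 11 members were lower and 6 higher, beside 22.1% and 23.1% of all genes, and the median was -0.29, beside 0.07. After quantile normalization of the arrays the member median was -0.19, beside 0.10 over all genes, and PFKP was the only member still called, where 7.47% of all genes were called lower and 3.15% higher. Without Control replicate 3, or without GNPs-HDM2 replicate 1, 11 members were called lower, beside 18.9% and 18.7% of all genes.

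The fall differed between arrays. All conjugate arrays lay below all Control arrays in 20 members and above them in 3, beside 23.9% and 36% of all genes, and after level centring in 11 and 6, beside 23.8% and 27%. GNPs-HDM2 replicate 3 was the highest of its group in 29 of the 34 genes and in 19 of the 20 that fell, so it lay nearest to Control. Control replicate 3 was the highest untreated array in 19 of the 34. The matching shares over all genes were not counted. Over all genes the values on GNPs-HDM2 replicate 3 were less spread out, with a standard deviation across genes of 0.55. It was 1.08 on replicate 1 and 1.28 on replicate 2, so the counts need not be particular to the members. Between the arrays of a group, the median standard deviation of the members was 0.44 in GNPs-HDM2, 0.19 in Control and 0.11 in GNPs. Over all genes it was 0.40, 0.15 and 0.09. One fit over all 9 arrays pools these spreads between arrays. A fit of GNPs-HDM2 and Control alone called 15 members lower and none higher, beside 18.5% and 17% of all genes. HK2, PFKM, GAPDH, PKM and EGLN3 lost their call in this fit.

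**Figure D1:**
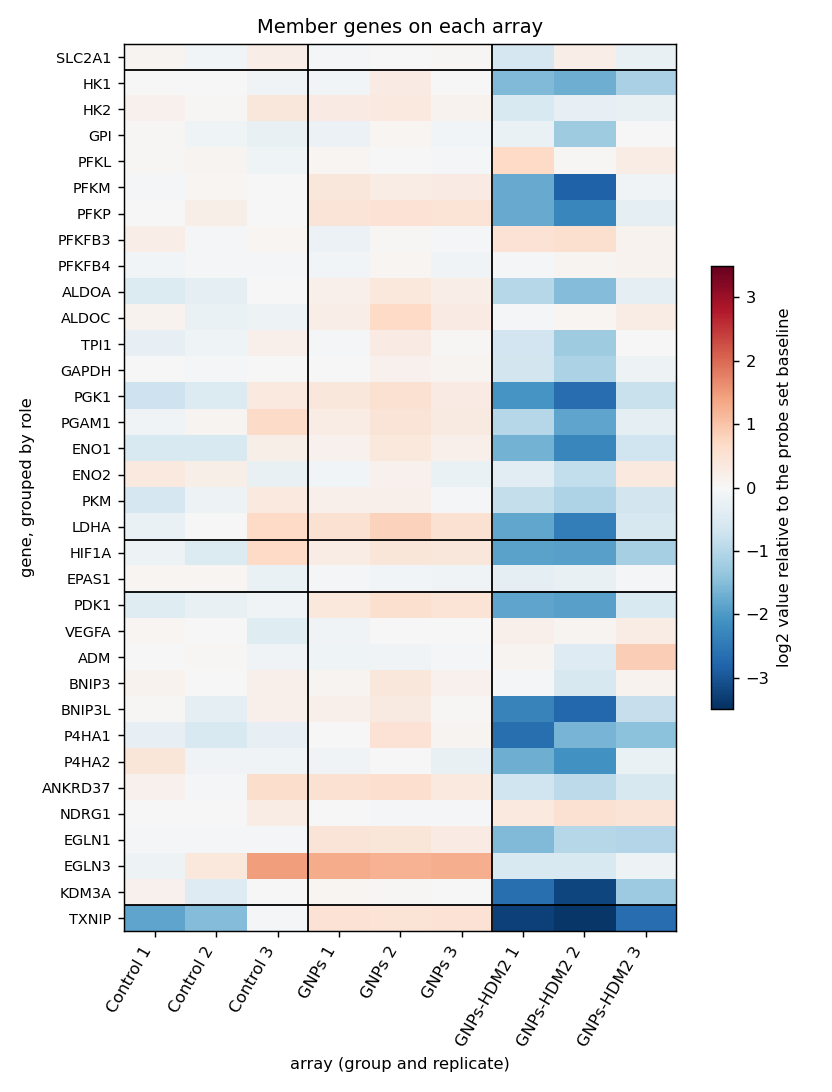
Log2 value of each measured member gene, relative to the probe set baseline, on each of the 9 arrays; rows are genes in the order of their roles, with black lines between roles and between groups, blue is below and red above the baseline. GNPs-HDM2 replicates 1 and 2 are the darkest blue columns, replicate 3 is paler, and TXNIP and KDM3A have the lowest values.

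The only measured carrier, SLC2A1, brings glucose into most cells. Its values were 0.09, -0.08 and 0.23 in Control and -0.59, 0.22 and -0.25 with the conjugate. The groups overlapped, and the difference of -0.29 (SE 0.21) did not pass (limma adjusted p = 0.245), nor did the level-centred -0.17 (limma adjusted p = 0.529). This mean covers 4 probe sets that ran from -1.19 to 0.47 as deposited, with 2 called lower and none higher. The 5 probe sets shared by SLC2A3 and SLC2A14 differed by -0.03 to 0.63 between the same groups and cannot be assigned to either gene.

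Of the 18 glycolytic enzymes, 10 fell with the conjugate and none rose, beside 25.1% lower and 33.1% higher over all genes, and their median was -0.65, beside 0.25. After level centring 3 were lower and 5 higher, beside 22.1% and 23.1% of all genes, which are shares much like those of all genes, and the median was -0.16, beside 0.07. HK1, PFKP and LDHA were lower on both scales. The enzymes that were called higher after centring were GPI, ALDOC, TPI1, GAPDH and ENO2.

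LDHA, which makes lactate from pyruvate, stood at -0.23, 0.02 and 0.70 in Control, at 0.53, 0.82 and 0.53 in GNPs and at -1.81, -2.41 and -0.55 in GNPs-HDM2. Every conjugate array was below every other array, and replicate 3 was the closest to them. The difference from Control was -1.75 (SE 0.42), a 3.37-fold fall (limma adjusted p = 0.00827). All 4 of its probe sets fell, by -1.81 to -1.70. None of the 4 was of the most specific type, since their names end in _s_at or _x_at. Their agreement is thus no independent support. After level centring the difference was -0.70 (limma adjusted p = 0.0334), a call lost on that scale in the fit of the 2 groups (limma adjusted p = 0.0770) and without Control replicate 3 (-0.44, limma adjusted p = 0.102).

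PGK1, which makes the first ATP of the pathway, stood at -0.73, -0.47 and 0.35 in Control, at 0.39, 0.52 and 0.29 in GNPs and at -2.07, -2.67 and -0.78 in GNPs-HDM2. Replicate 3 of the conjugate lay only just below the lowest Control array. The difference was -1.56 (SE 0.43; limma adjusted p = 0.0146), and 8 of its 9 probe sets fell. On the level-centred scale it was -0.50 and did not pass (limma adjusted p = 0.130).

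LDHA and PGK1 are textbook HIF targets, and their promoter windows are shown with the core letters of the hypoxia response element in capitals. The windows are RefSeq sequence of GRCh38.p14 from 250 bases before to 50 bases after the start, LDHA at chr11:18394313-18394612 and PGK1 at chrX:78103998-78104297, both on the plus strand. Capitals mark ACGTG or GCGTG on either strand, so that CACGTG counts once on each.
LDHA: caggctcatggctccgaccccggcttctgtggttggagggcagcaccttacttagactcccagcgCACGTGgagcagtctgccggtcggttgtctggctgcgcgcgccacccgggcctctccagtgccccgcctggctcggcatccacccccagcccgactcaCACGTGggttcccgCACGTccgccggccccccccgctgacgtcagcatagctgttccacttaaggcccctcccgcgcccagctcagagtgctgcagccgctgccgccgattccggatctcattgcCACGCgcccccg
PGK1: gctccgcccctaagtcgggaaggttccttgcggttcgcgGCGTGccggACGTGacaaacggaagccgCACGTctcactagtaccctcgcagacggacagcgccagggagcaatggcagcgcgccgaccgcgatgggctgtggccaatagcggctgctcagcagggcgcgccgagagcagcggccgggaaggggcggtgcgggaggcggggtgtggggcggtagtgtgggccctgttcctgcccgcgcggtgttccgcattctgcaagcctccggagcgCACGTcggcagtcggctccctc
The LDHA window held 5 ACGTG and 1 GCGTG, and the PGK1 window 3 and 1.

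Of the 34 measured members 31 had a promoter window in the RefSeq table used, of which the first listed for each gene was taken. ACGTG stood in 12 of them (38.7%) and in 21.6% of all 27305 windows of the same length. GCGTG stood in 16 (51.6%), beside 36.3% of all windows, and 23 windows (74.2%) held one or the other, beside 48.4%. LDHA, PGK1, HK2, BNIP3 and ALDOC held both. HK1, PFKP, PFKM, PGAM1, PDK1, P4HA2 and EGLN3, which all fell with the conjugate as deposited, held neither in this window, and neither did TPI1. These matches describe letters and not binding.

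At the entry to the pathway, the hexokinases trap glucose in the cell. HK1 stood at 0.01, -0.01 and -0.13 in Control, at -0.09, 0.28 and 0.01 in GNPs and at -1.56, -1.71 and -1.13 in GNPs-HDM2. The conjugate group lay clear of both others, and the difference from Control of -1.42 (SE 0.19; limma adjusted p = 0.00121) kept its call after level centring, at -0.68 (limma adjusted p = 0.00729). HK2 differed by -0.55 (SE 0.16; limma adjusted p = 0.0168) as the mean of 2 probe sets that were called in opposite directions, at -1.98 and 0.88. After level centring it was at -0.14 with no call (limma adjusted p = 0.520).

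The phosphofructokinases set the pace of glycolysis. PFKP stood at 0.00, 0.21 and -0.01 in Control and at -1.77, -2.29 and -0.35 in GNPs-HDM2. Replicate 3 was again the closest to the untreated arrays. Its difference was -1.54 (SE 0.39; limma adjusted p = 0.0107), -0.49 after level centring (limma adjusted p = 0.0336) and -0.79 after quantile normalization (limma adjusted p = 0.0271). The level-centred call was lost in the fit of the 2 groups (limma adjusted p = 0.0949) and without Control replicate 3 (-0.53, limma adjusted p = 0.0591). The muscle form PFKM had the widest conjugate spread of all members, from -2.84 to -0.14, and fell by 1.58 (SE 0.52; limma adjusted p = 0.0268), with no call after level centring (-0.53, limma adjusted p = 0.133). Its deposited call was lost without any 1 Control array (limma adjusted p from 0.0574 to 0.0709), and without GNPs-HDM2 replicate 1 or 2. PFKL, PFKFB3 and PFKFB4, the last pair making the sugar phosphate that activates phosphofructokinase, differed by 0.33, 0.32 and 0.14, and by 0.14, 0.06 and -0.19 after level centring, and did not pass on either scale.

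Several enzymes changed sign between the scales. GPI, TPI1 and ENO2 differed from Control by -0.36, -0.55 and -0.41 as deposited, none of them called, and by 0.69, 0.50 and 0.64 after level centring, all called higher (limma adjusted p = 0.0179, 0.0299 and 0.0184). GAPDH was called lower as deposited, at -0.63 (SE 0.21; limma adjusted p = 0.0314), and higher after level centring, at 0.43 (limma adjusted p = 0.0435). Its deposited call was lost with array weights (limma adjusted p = 0.0609) and without any 1 Control array (limma adjusted p from 0.0724 to 0.0799). The level-centred call was lost in the fit of the 2 groups (limma adjusted p = 0.114) and without Control replicate 3 (limma adjusted p = 0.0943). The brain aldolase ALDOC differed by 0.19 as deposited and by 0.50 after centring (limma adjusted p = 0.0349), while ALDOA differed by -0.68 and 0.37 with no call on either scale. With the replicate number as a block ALDOA was called lower (limma adjusted p = 0.0421).

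Farther down, PGAM1 fell by 1.27 (SE 0.35) and ENO1 by 1.25 (SE 0.36), with limma adjusted p = 0.0133 and 0.0163. After centring they were at -0.22 and -0.20 and did not pass, and without Control replicate 3 on that scale they turned to 0.01 and 0.05. The pyruvate kinase PKM fell by 0.72 (SE 0.23; limma adjusted p = 0.0249). Its 6 probe sets ran from -2.74 to 0.58, with 3 called lower. The call was lost after level centring (-0.50, limma adjusted p = 0.0767), without Control replicate 3 (-0.49, limma adjusted p = 0.0885) and with the most specific probe sets, which gave -0.11 (limma adjusted p = 0.657).

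GAPDH also has array control probe sets at 3 places along its transcript, kept out of the gene value. The 5' one differed by -1.31 between GNPs-HDM2 and Control, the middle one by -1.14 and the 3' one by -0.81. The 5' value minus the 3' value averaged -0.04 ± 0.04 (SD, n = 3) in Control, 0.07 in GNPs and -0.54 ± 0.13 (SD, n = 3) in GNPs-HDM2, with exact permutation p = 0.1, the smallest that 3 against 3 arrays can give. The same measure for actin differed by -0.10 (exact permutation p = 0.4). The part of this gradient along the transcript in the enzymes' falls was not tested.

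**Figure D2:**
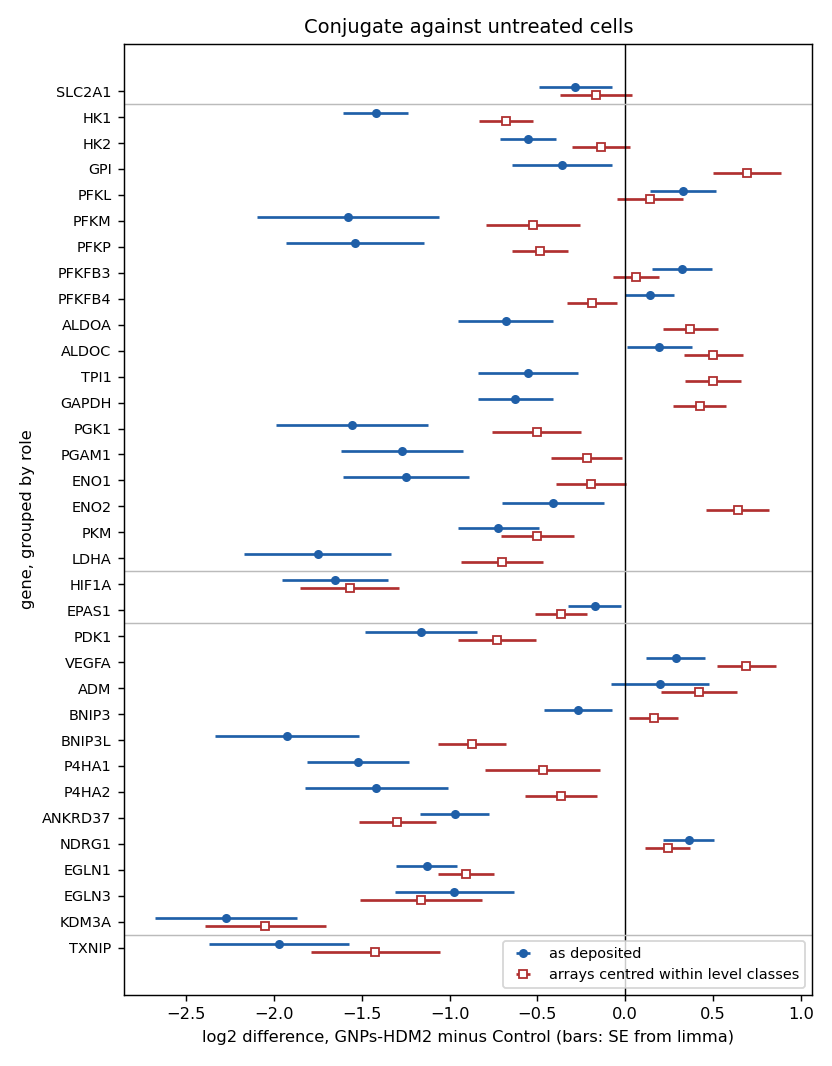
Difference between GNPs-HDM2 and Control for each measured gene on the log2 scale, as deposited (filled blue circles) and after centring each array within level classes (open red squares); bars are the standard errors of the limma fit and grey lines part the roles. Most enzymes move right with centring, and GPI, TPI1, GAPDH, ALDOA and ENO2 cross 0, PFKFB4 crosses it leftward, and HIF1A, ANKRD37, EGLN1, EGLN3 and KDM3A stay near their first place.

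HIF1A, the oxygen-labile HIF subunit of most cells, fell with the conjugate on both scales. It stood at -0.19, -0.48 and 0.70 in Control, at 0.25, 0.41 and 0.40 in GNPs and at -1.88, -1.89 and -1.17 in GNPs-HDM2. The conjugate arrays were apart from the rest, and Control replicate 3 was above all GNPs arrays. The difference was -1.65 (SE 0.30), a 3.15-fold fall (limma adjusted p = 0.00343), and -1.57 after level centring (limma adjusted p = 0.00303). Of its 8 probe sets 6 fell, within a range of -2.77 to -0.16. Its paralogue EPAS1 (HIF-2 alpha) differed by -0.17 (SE 0.15; limma adjusted p = 0.328) and by -0.37 after level centring (limma adjusted p = 0.0717), with 1 probe set called lower at -1.13 and 1 higher at 0.78.

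Of the 12 measured HIF targets outside glycolysis, 8 fell with the conjugate and none rose, beside the same 25.1% and 33.1% of all genes, and their median was -1.05, beside 0.25. After level centring 6 were lower, namely PDK1, BNIP3L, ANKRD37, EGLN1, EGLN3 and KDM3A, and VEGFA was higher, beside 22.1% and 23.1%, with a median of -0.60, beside 0.07. No target was called after quantile normalization.

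KDM3A, a histone demethylase, had the largest fall of the members against Control, as deposited and after level centring. Its values were 0.15, -0.44 and -0.03 in Control, 0.07, 0.05 and -0.01 in GNPs and -2.63, -3.22 and -1.28 in GNPs-HDM2. No conjugate array came near the other groups. The difference was -2.27 (SE 0.40), a 4.83-fold fall (limma adjusted p = 0.00310), and -2.05 after level centring (limma adjusted p = 0.00230). All 3 probe sets fell, 2 middle and 1 bright, by -2.63 to -2.07. After quantile normalization the difference was -0.80 (limma adjusted p = 0.0816).

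EGLN1 and EGLN3 code for prolyl hydroxylases that mark HIF for destruction. EGLN1 was tight in Control, at -0.05, -0.07 and -0.03, stood at 0.44, 0.43 and 0.29 in GNPs and at -1.53, -1.0 and -1.02 in GNPs-HDM2. The 3 groups did not overlap, with the bare particle on top. The conjugate differed from Control by -1.13 (SE 0.17; limma adjusted p = 0.00202), and by -0.91 after level centring (limma adjusted p = 0.00268).
EGLN3 ranged widely in Control, at -0.16, 0.37 and 1.46, and stood at -0.54, -0.54 and -0.17 with the conjugate. The conjugate array nearest to Control was only just below its lowest array. The difference was -0.97 (SE 0.34; limma adjusted p = 0.0333), and -1.16 after level centring (limma adjusted p = 0.0226). Without Control replicate 3 it was -0.52 as deposited and did not pass (limma adjusted p = 0.0794). The deposited call was also lost with array weights (limma adjusted p = 0.173) and without Control replicate 2 or GNPs-HDM2 replicate 1 or 2. On the level-centred scale it was lost in the fit of the 2 groups (limma adjusted p = 0.0597). The 3 probe sets of EGLN3 ran from -2.11 to 0.61, and 1 was called lower.

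ANKRD37, a small ankyrin protein gene known as a direct HIF target, fell by 0.97 (SE 0.20; limma adjusted p = 0.00469), and its difference grew to -1.30 after level centring (limma adjusted p = 0.00230). It stood at 0.16, -0.03 and 0.62 in Control and at -0.70, -0.92 and -0.56 in GNPs-HDM2. The groups were well apart. Its window, at chr4:185396591-185396890 on the plus strand, held ACGTG 3 times, marked in capitals as before.
ANKRD37: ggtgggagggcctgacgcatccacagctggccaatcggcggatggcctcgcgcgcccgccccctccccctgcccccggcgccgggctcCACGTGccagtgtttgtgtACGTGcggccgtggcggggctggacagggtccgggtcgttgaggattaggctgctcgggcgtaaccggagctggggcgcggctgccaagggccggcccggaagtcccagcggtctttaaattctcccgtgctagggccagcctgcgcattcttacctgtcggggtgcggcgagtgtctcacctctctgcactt

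Other falls were in genes of mitochondria and collagen. PDK1 codes for a kinase that shuts off the pyruvate dehydrogenase of mitochondria. It stood at -0.42, -0.27 and -0.13 in Control, at 0.36, 0.57 and 0.47 in GNPs and at -1.85, -1.91 and -0.54 in GNPs-HDM2. The 3 groups were apart, and the conjugate differed from Control by -1.16 (SE 0.32; limma adjusted p = 0.0139) and by -0.73 after level centring (limma adjusted p = 0.0237). PDK1 lost its call as deposited without Control replicate 3 (-1.09, limma adjusted p = 0.0510) or GNPs-HDM2 replicate 1 (-0.95, limma adjusted p = 0.0558), and level centred in the fit of the 2 groups (limma adjusted p = 0.0642) and without Control replicate 3 (-0.66, limma adjusted p = 0.0793). The mitophagy receptor BNIP3L fell by 1.93 (SE 0.41; limma adjusted p = 0.00570) in all 6 probe sets, and by 0.87 after centring (limma adjusted p = 0.00655). The collagen prolyl hydroxylases P4HA1 and P4HA2 fell by 1.52 (SE 0.29; limma adjusted p = 0.00395) and 1.42 (SE 0.41; limma adjusted p = 0.0167), and neither was called after centring, at -0.47 and -0.37. Each of these 2 genes had 1 probe set.

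The targets that did not fall were VEGFA, ADM, BNIP3 and NDRG1. NDRG1, a stress-response gene, stood at 0.01, -0.01 and 0.27 in Control and at 0.35, 0.53 and 0.46 in GNPs-HDM2. The groups did not overlap, and the difference of 0.36 (SE 0.15) just missed the threshold (limma adjusted p = 0.0546), with 0.24 after level centring (limma adjusted p = 0.144). VEGFA, the vessel growth factor, differed by 0.29 (SE 0.17; limma adjusted p = 0.155) as deposited and by 0.69 after level centring (limma adjusted p = 0.00983). The vasodilator peptide gene ADM differed by 0.20 (SE 0.28; limma adjusted p = 0.540) and by 0.42 after level centring (limma adjusted p = 0.140), with conjugate arrays at 0.10, -0.44 and 0.87.

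**Figure D3:**
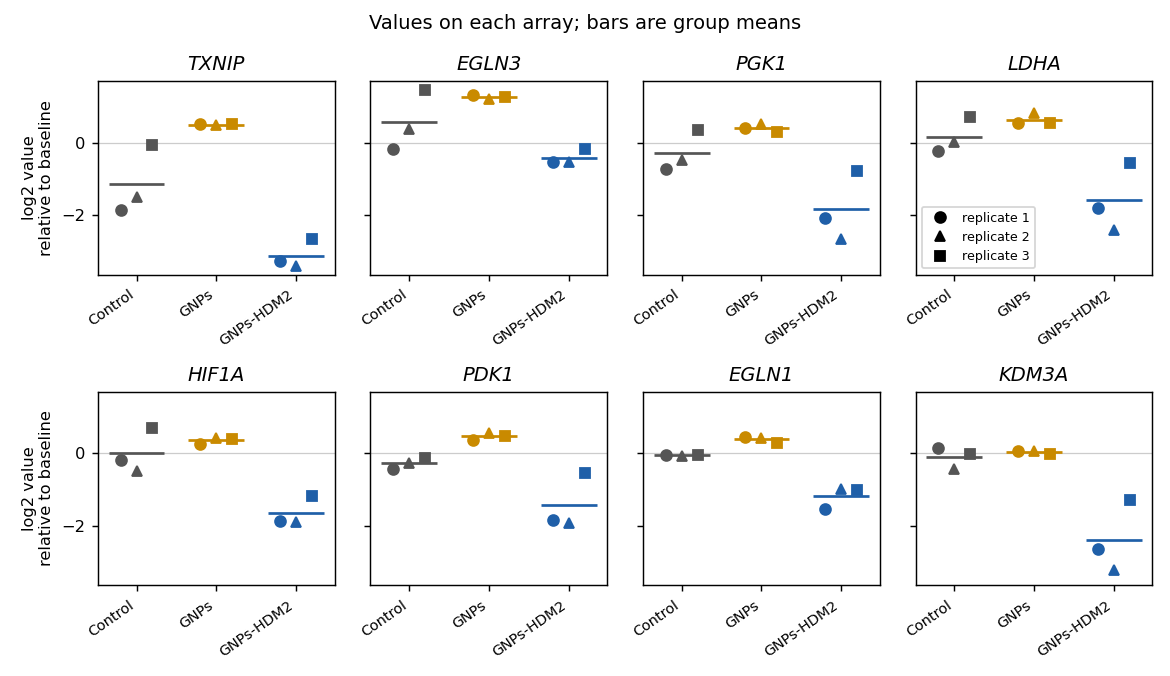
Log2 value relative to the baseline on each array for TXNIP, EGLN3, PGK1, LDHA, HIF1A, PDK1, EGLN1 and KDM3A; points are arrays, their shape gives the replicate number and bars are group means. GNPs-HDM2 is lowest in all 8 panels, GNPs arrays are tightly grouped, and Control replicate 3 lies near the GNPs arrays for EGLN3, PGK1, LDHA and HIF1A.

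Probe sets of the same gene did not always move together. With the conjugate, 65 of the 118 member probe sets were called lower and 12 higher, beside 23.7% and 24.9% of all probe sets, and 41 and 17 after level centring, beside 20.5% and 18.8%. In the bright class 47 of 62 member probe sets fell (75.8%), beside 56.7% of all bright ones, and their median was -1.56. In the middle class 17 of 45 fell and 7 rose, beside 21.9% and 28.4% of all middle ones. In the dim class none of 9 fell and 3 rose, beside 0.503% and 31.9%.

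Among the 27 genes with several probe sets, HK2, PFKFB3, PFKFB4, EPAS1, VEGFA and BNIP3 had probe sets called in both directions. VEGFA had 10, of which 4 rose and 3 fell, from -1.31 to 2.23. The probe set that rose by 2.23 was bright, at -0.49, 0.31 and -0.56 in Control and 2.06, 2.39 and 1.5 with the conjugate, while all bright probe sets had a median of -1.08. BNIP3, a mitophagy receptor like BNIP3L, had a bright probe set at -2.10 and a middle one at 1.56, both called on both scales, so its mean of -0.27, or 0.16 after level centring, describes neither. Which transcripts these probe sets read was not analysed here.

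**Figure D4:**
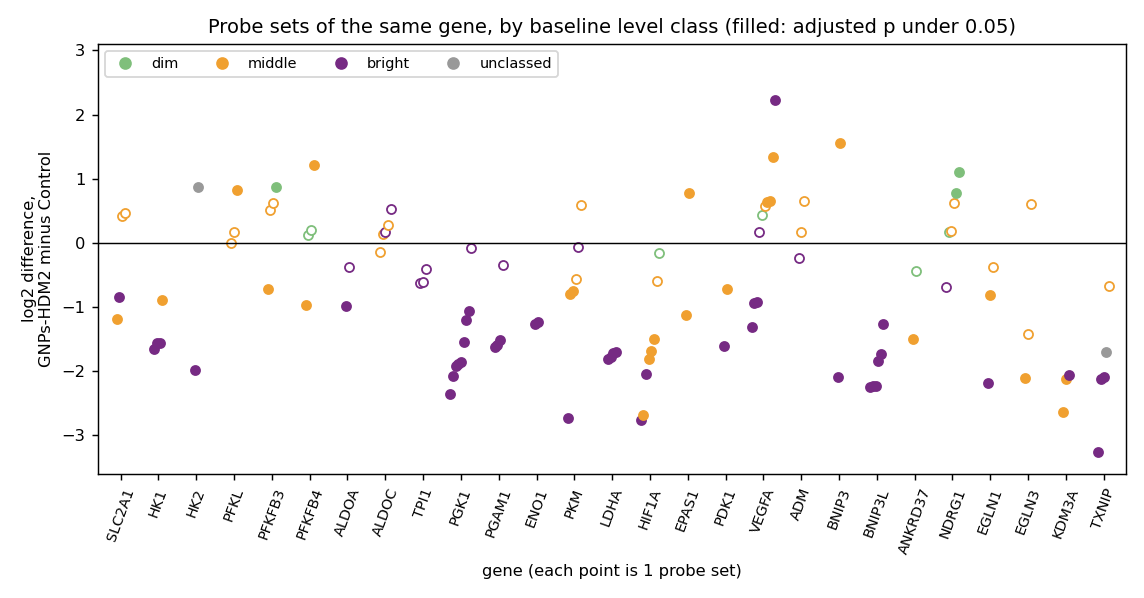
Difference between GNPs-HDM2 and Control on the log2 scale for each probe set of the 27 genes with more than 1; colour gives the level class and filled points have a limma adjusted p under 0.05. Purple bright points lie mostly below 0, while VEGFA holds a bright point at 2.23 and BNIP3 points at -2.10 and 1.56.

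TXNIP codes for a protein that binds thioredoxin and draws glucose carriers off the cell surface. On each conjugate array it had the lowest value relative to its baseline of all members. It stood at -1.86, -1.51 and -0.06 in Control, at 0.51, 0.48 and 0.50 in GNPs and at -3.28, -3.40 and -2.67 in GNPs-HDM2. The 3 groups did not overlap, and Control replicate 3 lay far above the other 2 untreated arrays. Against Control the conjugate differed by -1.97 (SE 0.40), a 3.92-fold fall (limma adjusted p = 0.00482), and by -1.42 after level centring (limma adjusted p = 0.0127). Its 5 probe sets ran from -3.26 to -0.68 and 4 were called. The most specific one, at -0.68, was not called (limma adjusted p = 0.231 over probe sets), and after quantile normalization the gene differed by -0.20 (limma adjusted p = 0.821).

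The TXNIP window, at chr1:145996530-145996829 on the minus strand, is shown because it held the letters of a carbohydrate response element, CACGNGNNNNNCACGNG, whose first base was at -88 from the start. Capitals mark that match.
TXNIP: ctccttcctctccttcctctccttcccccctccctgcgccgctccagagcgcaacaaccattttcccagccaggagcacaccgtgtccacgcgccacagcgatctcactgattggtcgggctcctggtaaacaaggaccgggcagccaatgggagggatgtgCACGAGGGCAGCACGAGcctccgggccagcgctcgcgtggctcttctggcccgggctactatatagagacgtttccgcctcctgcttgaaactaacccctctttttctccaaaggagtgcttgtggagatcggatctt
This motif stood in 20 of the 27305 windows (0.0732%) and in 2 of the 31 member windows, the other being P4HA1 at -169.

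The bare particle gave another picture. Against Control no member was called as deposited, and over all genes 0.0221% were called higher and none lower. At an unadjusted p under 0.05 stood 4 of the 34, beside 5.36% of all genes. The values nevertheless leaned upward, with 26 of the 34 members above 0 and a median of 0.16, beside -0.06 over all genes. All GNPs arrays lay above all Control arrays in 9 members, namely PFKM, PFKP, ALDOA, ALDOC, GAPDH, PDK1, P4HA1, EGLN1 and TXNIP, and below in none. Over all genes 12.4% lay apart higher and 21.5% lower. After level centring 8 lay apart higher, beside 13.1% of all genes.

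TXNIP had the largest difference between GNPs and Control, at 1.64 (SE 0.40), a 3.12-fold ratio that did not pass (limma adjusted p = 0.813). All 5 of its probe sets were higher with the bare particle, by 1.40 to 1.75, and none of them was called, beside 0.00811% of all probe sets called higher. Without Control replicate 3 the difference was 2.18 and was called (limma adjusted p = 0.0251). The fit of these 2 groups alone did not call TXNIP (limma adjusted p = 0.0914) and called PDK1 higher by 0.74 (limma adjusted p = 0.0458), where 0.314% of all genes were called higher. With array weights TXNIP, PDK1, EGLN1 and ALDOA were called higher, beside 2.6% of all genes. After quantile normalization these 4 with ALDOC, PGK1 and P4HA1 were called higher, beside 6.97% of all genes.

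EGLN1 was higher with the bare particle by 0.44 (SE 0.17), ALDOA by 0.53 (SE 0.27), ALDOC by 0.50 (SE 0.18), P4HA1 by 0.57 (SE 0.29) and PFKP by 0.41 (SE 0.39), with no call (limma adjusted p from 0.864 to 0.877). After level centring they were at 0.43, 0.48, 0.48, 0.52 and 0.35, again with no call. HIF1A, LDHA, PGK1 and EGLN3 were higher on average by 0.34, 0.47, 0.69 and 0.71, but their groups overlapped, with Control replicate 3 among or above the GNPs arrays. Bright member probe sets had a median difference of 0.36, beside 0.07 for all bright ones.

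**Figure D5:**
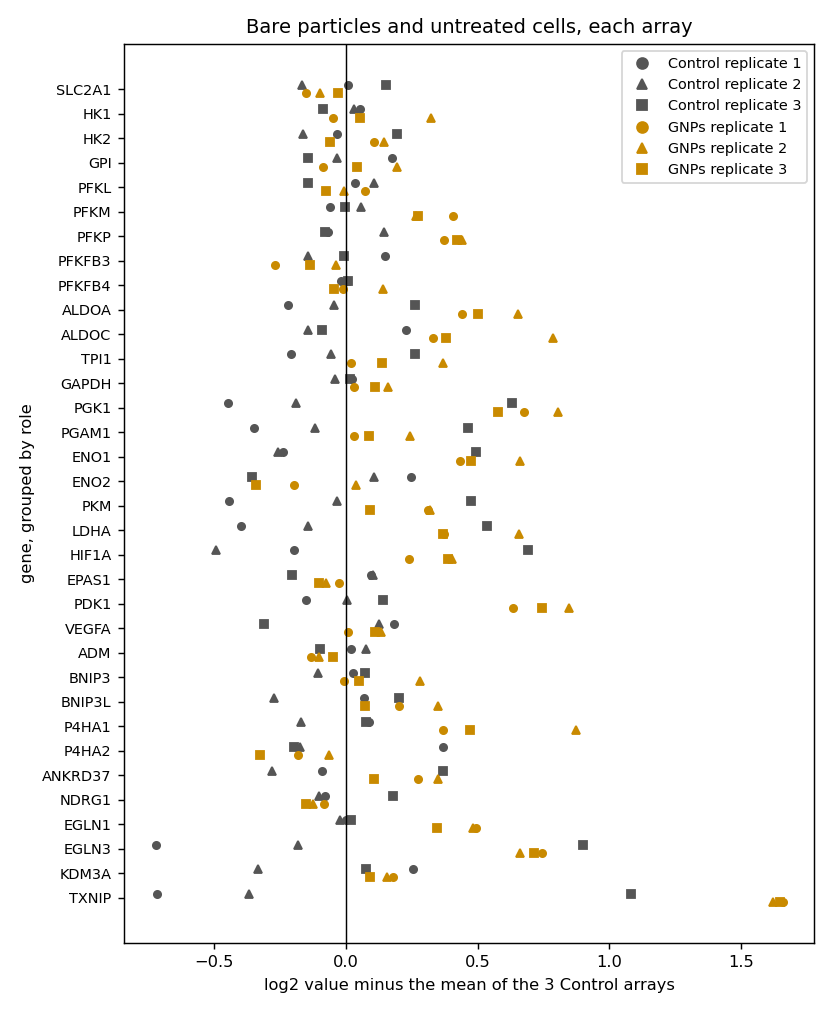
Log2 value on each Control (grey) and GNPs (gold) array minus the mean of the 3 Control arrays, for each measured gene; the marker shape gives the replicate. TXNIP lies farthest right with all GNPs arrays above every Control array, and Control replicate 3 (grey squares) lies among or beyond the GNPs arrays for PGK1, LDHA, HIF1A and EGLN3.

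The conjugate and the bare particle can also be set against each other, which compares the peptide conjugate with its carrier. Of the 34 members 22 were lower with the conjugate and 2 higher, beside 29.1% and 43.2% of all genes, with a median of -1.21, beside 0.30. After level centring 16 were lower and 4 higher, beside 26.9% and 31.6%, with a median of -0.30. These differences share the conjugate arrays with those against Control.

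TXNIP differed most, at -3.61 (SE 0.40), a 12.2-fold ratio (limma adjusted p = 3.34e-04), and at -3.04 after level centring. The enzymes PGK1 and LDHA differed by -2.24 and -2.22 (limma adjusted p = 0.00213 and 0.00192), and by -1.14 and -1.11 after centring, where both kept their call. Among the 18 enzymes 12 were lower and 1 higher, beside the same 29.1% and 43.2% of all genes. The one that was higher, PFKFB3, differed by 0.47 (limma adjusted p = 0.0292), was at 0.18 with no call after centring, and lost its call after quantile normalization, with array weights, in the fit of the 2 groups (limma adjusted p = 0.0568) and on leaving out any GNPs array or GNPs-HDM2 replicate 1 or 2. TPI1, one of the 12, was at -0.73 (limma adjusted p = 0.0402), lost its call in the fit of the 2 groups (limma adjusted p = 0.0719) and turned to 0.38 after centring (limma adjusted p = 0.0655). Among the 12 HIF targets 8 were lower and NDRG1 was higher, by 0.48 (limma adjusted p = 0.0145) and by 0.33 after centring (limma adjusted p = 0.0470), with no call after quantile normalization or with array weights. KDM3A differed by -2.42, HIF1A by -2.00, PDK1 by -1.90, EGLN3 by -1.68 and EGLN1 by -1.57, and all 5 kept their call after centring. GPI and ENO2, not called as deposited, were called higher after centring, at 0.70 and 0.86.

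Other genes of the same pathways did not share 1 direction in GNPs-HDM2 against Control. Over all genes 33.1% rose and 25.1% fell in this comparison, with a median of 0.25, and after level centring 23.1% and 22.1%. Of 25 other glycolysis genes 13 rose and 5 fell, with a median of 0.56, and the share that fell was near that of all genes. HKDC1, a hexokinase relative, rose by 1.79 (SE 0.27; limma adjusted p = 0.00192), and SLC2A2, the glucose carrier of liver and islets, by 0.84 (SE 0.16; limma adjusted p = 0.00405). TIGAR, which restrains glycolysis, fell by 2.12 (SE 0.29; limma adjusted p = 0.00143), and PGM1, which links glycogen to glycolysis, by 1.67 (SE 0.28; limma adjusted p = 0.00255).

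Of 11 other genes that carry, convert or gate pyruvate at mitochondria 8 fell and none rose, with a median of -1.13, and 5 were called lower after level centring. The list holds both sides of that gate. The dehydrogenase subunits PDHA1, PDHB, PDHX, DLAT and DLD and the carriers MPC1 and MPC2 fell, and so did PDK3, a kinase that shuts the dehydrogenase off, by 0.74 (limma adjusted p = 0.0132). The kinases PDK2 and PDK4 were at 0.43 and 0.38, and the opposing phosphatase PDP1 was at -0.32, with no call. DLD and DLAT fell by 2.43 (SE 0.38; limma adjusted p = 0.00210) and 2.39 (SE 0.40; limma adjusted p = 0.00255). Both were still called after quantile normalization, at -0.93 and -1.33. The carriers did not hold up in this way. The MPC1 groups overlapped as deposited and after level centring, and the MPC2 groups after level centring. On that scale MPC1 stood at 0.09, 0.07 and -0.11 in Control and at -0.05, -0.45 and 0.31 with the conjugate. MPC2 stood at -0.14, -0.23 and -0.16 in Control and at -0.30, -0.34 and -0.15 with the conjugate. Of 14 other HIF regulators 4 rose and 5 fell, shares near those of all genes. The HIF partner ARNT2 rose by 0.74 (SE 0.19; limma adjusted p = 0.0104) and HIF3A by 0.59 (SE 0.17; limma adjusted p = 0.0173), though with the most specific probe sets HIF3A was at -0.05 and ARNT2 at 0.41, neither called. CUL2, a scaffold of the ligase that destroys HIF alpha, fell by 1.90 (SE 0.26; limma adjusted p = 0.00134), and SIAH1, a ligase for prolyl hydroxylases, by 1.13 (SE 0.16; limma adjusted p = 0.00145).

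Of 38 other HIF targets 7 rose and 11 fell, with a median of -0.03, and the share that fell was near that of all genes. HMOX1, haem oxygenase, rose by 2.47 (SE 0.38; limma adjusted p = 0.00199) and stood at 3.60 after quantile normalization, but was not called with array weights. ANGPTL4, a regulator of lipid uptake, rose by 0.97 (SE 0.17; limma adjusted p = 0.00275). TFRC, the transferrin receptor, fell by 2.09 (SE 0.36; limma adjusted p = 0.00295), and GBE1, the glycogen branching enzyme, by 1.87 (SE 0.22; limma adjusted p = 9.01e-04). The 14 genes of these 4 lists that are given above with an SE all kept their call after level centring. After quantile normalization SLC2A2, HIF3A, SIAH1, ANGPTL4 and GBE1 lost theirs, at 0.57, 0.25, -0.60, 0.61 and -0.46, and the other 9 kept it. In the deposited values no gene of these lists was called between GNPs and Control.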

How the data were processed

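The authors deposited log2 values (base taken as 2, not stated) from 9 arrays in a single matrix, counted from a probe set's own baseline, which is inferred from the values, since 59.7% of probe sets hold an exact 0. The summarization tool is not given in the sources used here. Array control probe sets (102) were left out, and probe sets with 1 gene symbol in the platform annotation were averaged by gene. Level classes came from the step size of the stored numbers. Among 20000 simulated probe sets they were right for 96.9% of those that received a class. Groups were compared with lmFit and eBayes in limma 3.58.1 (R 4.3.3 with version 1.17.8 of data.table), 2-sided, with Benjamini-Hochberg adjustment over all 18132 genes and a threshold of 0.05. Precision is limited by 3 arrays a group. The fit was tested on simulated data. Members and gene lists were chosen with earlier results of these data known. Of each other list up to 2 genes a direction with the smallest adjusted p are given with an SE. The pyruvate genes at mitochondria are also named in full. Same-numbered arrays of GNPs-HDM2 and Control deviated together over genes (r = 0.156, 0.107 and 0.290). Replicate 2 was only just past the 0.1 required of every pair. The number was thus taken as a pairing from the data alone, and only in an alternative fit with a replicate block. The main fit did not use the number. The other group pairs ran from -0.06 to 0.10, highest for replicate 2 of GNPs-HDM2 and GNPs (r = 0.103), and did not meet the requirement for every pair. For each comparison 20 alternatives were run, 2 of them chosen after seeing the data, both with level centring: a fit of the 2 groups compared, and leaving out Control replicate 3.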

Additional observations from a re-analysis of the deposited data

Results flagged for a closer look

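Probe sets outside the gene comparisons were higher on the GNPs-HDM2 arrays than on the Control arrays, which is a signal that no gene comparison uses. The hybridization spike-ins, added in a fixed amount after labelling, were 2.06 higher on the log2 scale. The poly-A spike-ins, added before labelling, were 1.72 higher. The background probe sets were 0.52 higher. In each case all 3 conjugate arrays lay above all 3 Control arrays (exact permutation p = 0.1, the smallest possible here). Probe sets for 18S ribosomal RNA differed by -2.11, with Control arrays at -0.93, -0.68 and 0.81. The part of these shifts in the members' differences was not tested.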

How the results depend on the processing

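Against Control, the conjugate gave 10 enzymes, 8 HIF targets and 20 members called, all lower. The called counts became 1, 0 and 1 after quantile normalization and 6, 7 and 15 in the fit of the 2 groups, again all lower. With level centring in that fit they were 2, 5 and 9, of which 1, 1 and 2 were higher, and with level centring without Control replicate 3 they were 3, 6 and 11, of which 2, 1 and 3 were higher. HK1 was the only enzyme lower in both of the last settings, while ENO2 was higher in the first and ALDOA and TPI1 in the second, and VEGFA was higher in both. Leaving out 1 array gave 3 to 14, 5 to 10 and 11 to 26. Without GNPs-HDM2 replicate 3 the count was 26, 2 of them higher. Apart from Control replicate 3 and GNPs-HDM2 replicate 1, shares of all genes called are not given here for leaving out an array. Nor are they given for level centring with an added choice. Counts in those settings thus describe the processing and are no result about the members. The replicate block gave 11, 8 and 21 and changed no call except that of ALDOA. For the bare particle the counts of 0 became 3, 3 and 7 after quantile normalization, 1, 2 and 4 with array weights, and 0, 1 and 1 in the 2-group fit. Leaving out 1 array gave 0 to 0, 0 to 0 and 0 to 1, and level centring without Control replicate 3 called 1 member. Against the bare particle 13 enzymes were called, 12 of them lower, and 8 with level centring in the 2-group fit, 6 of them lower. GPI and ENO2 were higher there and were not among the 13.

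Values that turned sign in GNPs-HDM2 against Control, with a call on at least 1 side, were 0.69 for GPI, 0.50 for TPI1, 0.43 for GAPDH and 0.64 for ENO2 with level centring, with 0.43 and 0.64 for the last pair in the 2-group fit. Without Control replicate 3 on that scale they were 0.50 for ALDOA, 0.62 for TPI1, 0.43 for GAPDH, 0.01 for PGAM1 and 0.05 for ENO1. The most specific probe sets gave 1.56 for BNIP3 and -0.05 for HIF3A. Another 19 values turned sign with no call on either side, among them, with level centring, 0.37 for ALDOA, 0.16 for BNIP3 and -0.19 for PFKFB4, with it in the 2-group fit 0.69 for GPI and 0.50 for TPI1, and with it without Control replicate 3 0.62 for GPI and 0.46 for ENO2. Against the bare particle, level centring alone or with either added choice gave 0.70 for GPI, 0.38 for TPI1, 0.38 for GAPDH and 0.86 for ENO2, and the most specific probe sets 1.86 for BNIP3. Most specific probe sets also moved VEGFA to 1.33, NDRG1 to 0.94 and PFKL to 0.82 against Control, all called higher, and PKM to -0.11 and TXNIP to -0.68, no longer called. These are probe sets whose names do not end in _s_at or _x_at. A gene that had none kept all its probe sets, so this setting could not change its values. GPI, ALDOA, TPI1, GAPDH, PGAM1, ENO1 and LDHA were among such genes. The causes were not tested.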
